A study of Homo sapiens with 12 samples.

Results

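The state of 2 human non-small cell lung cancer (NSCLC) lines under the same drug was compared: H460 treated with ISP-I against A549 treated with ISP-I. ISP-I (isovalerylspiramycin I) is a macrolide and a main component of carrimycin, and the treated cells received 10 µM for 48 h. For H460 the study reports an inhibitory concentration (IC50) below this dose, and for A549 a value above it. Total RNA was sequenced from 3 ISP-I treated H460, 3 ISP-I treated A549, 3 non-treated H460 and 3 non-treated A549 libraries, all of the genotype labelled WT. The 6 treated libraries, of 12 in all, are the subject, and the 6 non-treated (control) libraries served to sort each difference by whether it was there without the drug. For cell work the study dissolved ISP-I in DMSO, and the labels of the controls name no vehicle. Effects of drug and vehicle therefore cannot be told apart here. All 13953 genes averaging 0.1 FPKM or more over the 12 libraries (FPKM, fragments scaled by gene length in kilobases and by library depth) were tested, of 19973 listed. Each arm is a single established line, and the labels do not say whether the 3 libraries of a group came from separate cultures. The p-values therefore measure the spread between these libraries, which may be technical.

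A549 was established from a lung adenocarcinoma and keeps features of glandular epithelium. H460 came from a large cell carcinoma, a poorly differentiated tumour defined by the absence of glandular or squamous features. Both carry loss of KEAP1 function, which leaves the antioxidant regulator NRF2 active. Lines of different origin keep much of their expression program when they meet the same drug, while stress, inflammatory and cell-cycle genes answer within hours or days and can answer to different extents.

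Genes were sorted as follows. A gene was called where the lines differed over 2-fold on the log2(FPKM + 1) scale with a Benjamini-Hochberg adjusted p under 0.05 (limma). A call in the same direction with and without ISP-I was named persistent. A call under ISP-I only, with a called line by treatment interaction in that direction, was named appeared. A call in controls only, with a called interaction that closed it, was named converged. Calls in opposite directions were named reversed. All differences are H460 minus A549, so a positive value is higher in H460.

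The treated libraries held 14342949 to 17874422 reads on genes. Replicates of treated A549 lay closest together, though above counting noise, at a chi-square per degree of freedom of 3.03 to 3.29. Those of treated H460 were further apart, at 22.9 to 98.7, and the 2 larger values both involved library 3. Control H460 lay at 12.7 to 14.4. In control A549, libraries 1 and 2 gave 3.38, and library 3 gave 28.0 and 32.5 against them. Without library 3 of control A549, 386 genes converged, against 340 with it, and 2454 interactions were called, against 2234. Keratin transcripts of epithelial cells were abundant in both treated lines: KRT8 lay between 168 and 203 FPKM in H460 and between 313 and 332 FPKM in A549, and KRT18 between 107 and 159.5 FPKM and between 268 and 285 FPKM. KRT19 went the other way, between 52.3 and 61.5 FPKM in treated H460 and between 43.8 and 46.8 FPKM in treated A549. The adhesion markers EPCAM and CDH1 reached at most 0.148 and 0.0458 FPKM in treated H460, so these defining markers were near 0 there. In treated A549 they were low too, at 1.31 to 1.49 FPKM and 0.605 to 0.911 FPKM. CDH1 lay between 4.75 and 5.18 FPKM in control A549. The leukocyte and endothelial markers PTPRC, PECAM1 and CDH5 did not exceed 0.0368 FPKM in any treated library, and CD3E was at 0 in all. VWF, another endothelial marker, lay between 0.242 and 0.368 FPKM in treated A549, at most 0.0809 FPKM in treated H460 and at most 0.00655 FPKM in control A549. It was not among the genes tested.

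Under ISP-I the genes furthest apart were led by 2 keratin genes and a transglutaminase on the side of A549, and by a chemokine, a protease inhibitor and an activin subunit on the side of H460. In all, 3301 genes were called, 1069 higher in H460 (7.66% of genes tested) and 2232 higher in A549 (16.0%). Without the drug 762 genes favoured H460 (5.46%) and 1184 favoured A549 (8.49%). The interaction was called for 827 genes in the direction of H460 (5.93%) and for 1407 in the direction of A549 (10.1%). The balance of directions depended on scaling. The median difference over all genes under ISP-I was -0.19 as deposited and moved by 0.20 on the log2 scale with median-of-ratios factors, which gave 1706 calls higher in H460 (12.2%) and 1489 higher in A549 (10.7%). Calls higher in H460 thus made up 32.4% as deposited and 53.4% after scaling. The median in controls was -0.018. Directions below are given where they held under both scalings unless stated, and list medians are read against these medians. List counts are read against the shares of all genes, 7.66% and 16.0% as deposited and 12.2% and 10.7% after scaling.

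Of the 1946 genes that separated the lines without the drug, 1214 (62.4%) were persistent, 340 (17.5%) converged and 16 reversed, and the other 376 lost the call without a called interaction. Of the 3301 genes called under ISP-I, the persistent genes were 36.8% and the 1090 appeared genes 33.0%, and 981 were called under ISP-I only with no called interaction. The line differences with and without the drug, which share no library, correlated across the 13953 genes at a Pearson r of 0.67 and a Spearman rho of 0.56. This describes genes measured in the same libraries, not independent replicates.

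**Figure D1:**
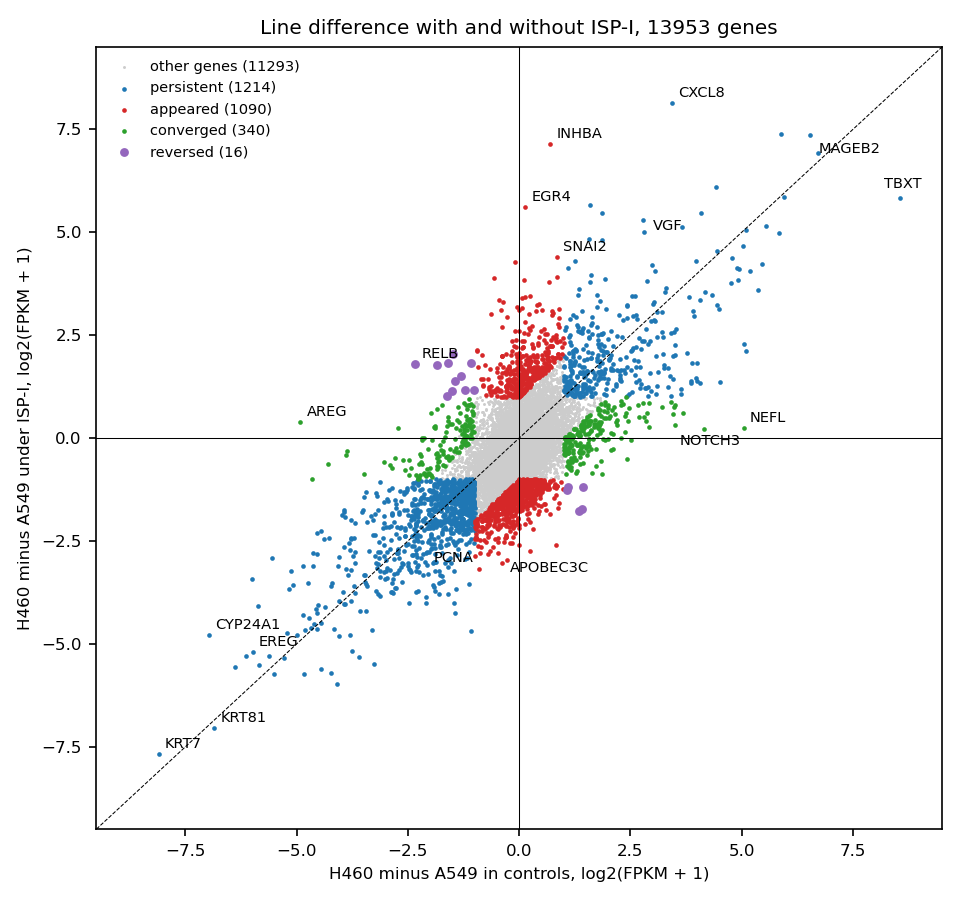
Difference between H460 and A549 for each of the 13953 genes tested, in controls (x axis) and under ISP-I (y axis), both as log2(FPKM + 1); the dashed line marks equal differences. Persistent genes (blue, 1214) run along the dashed line, appeared genes (red, 1090) stand above and below the centre, converged genes (green, 340) lie along the horizontal axis, and the 16 reversed genes (purple) fall in the opposite quadrants.

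The largest differences toward A549 under ISP-I were led by 2 keratin genes. KRT7, a keratin of simple glandular epithelium (chr12:52232520-52252186 on hg38), measured 1.11, 1.31 and 4.65 FPKM in ISP-I treated H460 and 637, 606 and 599.8 FPKM in ISP-I treated A549. The log2 difference was -7.67 ± 0.35, adjusted p = 1.41e-06. KRT81, a type II keratin whose close relative KRT86 can share its reads, measured 1.65, 1.68 and 2.10 FPKM in ISP-I treated H460 and 317, 419.9 and 374 FPKM in ISP-I treated A549 (-7.04 ± 0.13, adjusted p = 4.9e-08). TGM2, tissue transglutaminase (chr20:38127385-38166578), measured 0.746, 0.385 and 0.585 FPKM in ISP-I treated H460 and 102, 97.5 and 95.5 FPKM in ISP-I treated A549 (-5.99 ± 0.11, adjusted p = 4.9e-08). PPP1R14A, an inhibitor of myosin phosphatase (chr19:38251237-38256532), was at 0 in every H460 library of either arm and at 51.6, 55.4 and 49.5 FPKM in treated A549, which is at least 1238-fold higher against a floor of 3 reads over the 3 H460 libraries. No H460 library came near an A549 library in any of these 4 genes, and groups apart were a condition of their choice. INA, the neuronal intermediate filament alpha-internexin, measured 0.0344, 0.0369 and 0.0207 FPKM in ISP-I treated H460 and 51.4, 54.4 and 52.9 FPKM in ISP-I treated A549. H2AJ, a histone H2A variant whose reads may be split with other histone genes, measured 0.15, 0.0358 and 0.0602 FPKM in ISP-I treated H460 and 53.8, 57.5 and 57.5 FPKM in ISP-I treated A549. FA2H, a fatty acid hydroxylase, measured 0.136, 0.201 and 0.247 FPKM in ISP-I treated H460 and 57.4, 55.3 and 58.8 FPKM in ISP-I treated A549. ALDH1A1, a retinaldehyde dehydrogenase, was the gene of this group with the highest H460 level, at 6.68, 7.48 and 5.72 FPKM in ISP-I treated H460 and 371, 358 and 350.4 FPKM in ISP-I treated A549. The 8 genes differed by -7.67 to -5.57 on the log2 scale, and all were persistent.

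The largest differences toward H460 were in a chemokine, a protease inhibitor, germline antigens and signalling ligands. CXCL8, the neutrophil chemokine interleukin-8 (chr4:73740541-73743716), measured 1596, 1792 and 1878 FPKM in ISP-I treated H460 and 4.34, 5.15 and 6.29 FPKM in ISP-I treated A549, a 334-fold ratio of means (8.14 ± 0.14, adjusted p = 4.59e-08). SERPINB2, plasminogen activator inhibitor-2, measured 146, 143 and 237 FPKM in ISP-I treated H460 and 0.0733, 0 and 0.0254 FPKM in ISP-I treated A549 (7.38 ± 0.19, adjusted p = 1.36e-07). INHBA, which encodes the activin A subunit, measured 158, 249 and 133 FPKM in ISP-I treated H460 and 0.259, 0.231 and 0.219 FPKM in ISP-I treated A549 (7.14 ± 0.21, adjusted p = 2.19e-07). Every treated A549 library held these 3 genes at single-digit values or near 0, far below the H460 libraries. Groups apart were a condition of choice here too. The X-linked cancer-testis antigen genes MAGEB2 and MAGEA1 are normally confined to germ cells. MAGEB2 (chrX:30215563-30220089) measured 166, 156 and 187 FPKM in ISP-I treated H460 and 0.0833, 0 and 0 FPKM in ISP-I treated A549, the A549 value resting on 2 reads, with a ratio of 6125 (95% counting interval 1696 to 50579, exact Poisson, counting error only). MAGEA1 measured 176, 154 and 153 FPKM in ISP-I treated H460 and 0.313, 0.335 and 0.326 FPKM in ISP-I treated A549. IGFN1, an immunoglobulin and fibronectin domain protein, measured 98.9, 162 and 186 FPKM in ISP-I treated H460 and 1.20, 1.05 and 1.07 FPKM in ISP-I treated A549. EPGN, an EGF-family ligand, measured 58.6, 76.5 and 43.9 FPKM in ISP-I treated H460 and 0.0406, 0.0193 and 0.0211 FPKM in ISP-I treated A549. TBXT, the T-box factor brachyury, measured 54.4, 59.6 and 60.5 FPKM in ISP-I treated H460 and 0.0257, 0.049 and 0.0536 FPKM in ISP-I treated A549. TBXT stood out among the 8 for its fall: it measured 370.4, 387 and 408 FPKM in control H460, a change in H460 of -2.72 ± 0.074, adjusted p = 2.55e-11. INHBA was the one gene of the 8 that was not called in controls.

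Persistent genes were mostly higher in A549: 857 (6.14% of genes tested) against 357 higher in H460 (2.56%). In 978 of the 1214 the interaction was not called, in 117 the gap had widened and in 119 it had narrowed. Neither line changed past the call in 615 of the 857 and in 204 of the 357. With median-of-ratios scaling, 1071 of the 1214 were persistent again, 715 of the 857 and 356 of the 357.

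Epithelial junction and keratin genes hold cells together and stiffen them. Of 39 listed, 1 of 31 tested members were called higher in H460 and 13 higher in A549 under ISP-I, and 11 were persistent. Their median difference was -0.79 under ISP-I and -1.28 in controls. With median-of-ratios scaling 6 members were called higher in A549, with the same direction of the median (-0.56). After KRT7 and KRT81, the largest was DSP, which encodes the desmosomal plaque protein desmoplakin, at 0.635, 0.807 and 0.469 FPKM in ISP-I treated H460 and 26.3, 25.1 and 25.3 FPKM in ISP-I treated A549 (-4.03 ± 0.10, adjusted p = 1.23e-07). Its level in controls was 0.0968, 0.0786 and 0.281 FPKM in control H460 and 17.9, 20.2 and 12.6 FPKM in control A549, and the interaction was -0.088 ± 0.21, adjusted p = 0.74.

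Lineage regulators followed. FOXA2, a forkhead factor of endoderm and airway epithelium, measured 0.123, 0.221 and 0.248 FPKM in ISP-I treated H460 and 10.7, 9.43 and 9.92 FPKM in ISP-I treated A549 (-3.20 ± 0.088, adjusted p = 1.72e-07). ABCA3, the lipid transporter of lamellar bodies, measured 0.867, 0.754 and 0.63 FPKM in ISP-I treated H460 and 11.6, 10.9 and 11.0 FPKM in ISP-I treated A549. LPCAT1, an acyltransferase of surfactant phospholipid, was on the same list but appeared, at 18.9, 16.1 and 15.0 FPKM in ISP-I treated H460 and 80.3, 76.1 and 73.3 FPKM in ISP-I treated A549. LPCAT1 in controls measured 34.2, 37.6 and 35.9 FPKM in control H460 and 43.7, 43.0 and 46.4 FPKM in control A549. TM4SF4, a tetraspanin-like membrane protein, narrowed: 0, 0.0392 and 0.044 FPKM in ISP-I treated H460 and 3.90, 3.75 and 4.69 FPKM in ISP-I treated A549 against 22.4, 22.8 and 22.2 FPKM in control A549. Of the lung and surfactant list, 2 of 18 tested members were called higher in H460 and 6 higher in A549 under ISP-I, and its median of -0.12 became 0.013 with median-of-ratios scaling. The alveolar marker NKX2-1 lay between 0.228 and 0.318 FPKM in treated H460 and reached at most 0.022 FPKM in treated A549. NAPSA lay between 0.0156 and 0.0565 FPKM in treated H460 and between 0.131 and 0.267 FPKM in treated A549. SFTPB and SFTPC reached at most 0.0931 FPKM in any treated library and were not tested. One liver-type gene was higher in H460. CPS1, carbamoyl phosphate synthetase, measured 49.9, 49.6 and 33.2 FPKM in ISP-I treated H460 and 1.08, 1.07 and 1.32 FPKM in ISP-I treated A549 (4.37 ± 0.16, adjusted p = 6.27e-07). Of the plasma protein and hepatocyte-type list 1 of 17 tested members were called higher in H460 and 3 higher in A549 under ISP-I, shares close to those of all genes. HNF4A, a nuclear receptor of liver and gut epithelium, was among those 3 and measured 0.0533, 0.0491 and 0.0642 FPKM in ISP-I treated H460 and 1.45, 1.63 and 1.65 FPKM in ISP-I treated A549.

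Cancer-testis antigens were divided between the lines. Of 39 listed, 11 were tested, 2 were called higher in H460 (MAGEB2 and MAGEA1) and 3 higher in A549, and all 5 were persistent. MAGEA6, whose near-identical copy MAGEA3 can share its reads, measured 0.0601, 0 and 0 FPKM in ISP-I treated H460 and 19.9, 24.6 and 22.1 FPKM in ISP-I treated A549. Each line thus kept its own set of MAGE transcripts under ISP-I. SMARCA4 and MTAP were persistent toward H460. SMARCA4, the ATPase of the SWI/SNF complex, measured 18.2, 15.8 and 13.4 FPKM in ISP-I treated H460 and 2.10, 2.07 and 1.92 FPKM in ISP-I treated A549 (2.46 ± 0.12, adjusted p = 1.87e-06). MTAP, the methylthioadenosine phosphorylase gene of 9p21, measured 3.53, 4.06 and 3.06 FPKM in ISP-I treated H460 and 0.00922, 0.0351 and 0.0816 FPKM in ISP-I treated A549 (2.12 ± 0.094, adjusted p = 1.32e-06).

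EGF-family ligands were divided between the lines. EREG (epiregulin) measured 0.754, 0.977 and 0.625 FPKM in ISP-I treated H460 and 63.3, 62.4 and 67.7 FPKM in ISP-I treated A549 (-5.20 ± 0.10, adjusted p = 5.71e-08), whereas EPGN, given above, was higher in H460. IGFBP4, an insulin-like growth factor binding protein, measured 29.3, 23.6 and 29.6 FPKM in ISP-I treated H460 and 412, 404 and 418 FPKM in ISP-I treated A549 and widened from 186, 219 and 209 FPKM in control H460 and 818, 850.1 and 954 FPKM in control A549 (interaction -1.78 ± 0.16, adjusted p = 2.88e-06). Across growth factor ligands and receptors, 7 of 40 tested members were called higher in H460 and 19 higher in A549 under ISP-I, 16 of them persistent, and the median difference was -0.86 under ISP-I and -1.24 in controls. ITGA3, the laminin-binding integrin alpha-3 chain, measured 7.19, 6.24 and 6.64 FPKM in ISP-I treated H460 and 181, 171 and 171 FPKM in ISP-I treated A549. MMP7, a matrix metalloproteinase of glandular epithelium, measured 0.145, 0.0259 and 0 FPKM in ISP-I treated H460 and 18.6, 24.0 and 20.1 FPKM in ISP-I treated A549. Of integrins, laminins and matrix proteases, 5 of 40 tested members were called higher in H460 and 14 higher in A549 under ISP-I.

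Drug metabolism genes held some of the widest gaps. CYP24A1, the vitamin D 24-hydroxylase, measured 0.0701, 0.0301 and 0.101 FPKM in ISP-I treated H460 and 29.5, 28.6 and 27.2 FPKM in ISP-I treated A549, a 423-fold ratio of means, and was nonetheless reduced in A549, from 239, 248 and 233 FPKM in controls (change -3.03 ± 0.083, adjusted p = 1.42e-10). On the log2(FPKM + 1) scale its gap narrowed, while the H460 values near 0 leave the fold itself imprecise. NNMT, nicotinamide N-methyltransferase, measured 0.496, 0.463 and 0.363 FPKM in ISP-I treated H460 and 21.9, 24.7 and 21.1 FPKM in ISP-I treated A549. Of the drug metabolism and efflux list, 8 of 32 tested members were called higher in H460 and 12 higher in A549 under ISP-I (8 in H460 and 8 in A549 with median-of-ratios scaling). NRF2 targets went both ways: 12 of 42 tested members were called higher in H460 and 8 higher in A549 under ISP-I. The counts became 12 in H460 and 4 in A549 with median-of-ratios scaling. NR0B1, a nuclear receptor co-repressor, measured 517, 485 and 842 FPKM in ISP-I treated H460 and 53.6, 53.5 and 54.3 FPKM in ISP-I treated A549 (3.44 ± 0.21, adjusted p = 5.7e-06). GSTM3, a glutathione transferase, measured 15.2, 13.3 and 16.9 FPKM in ISP-I treated H460 and 0.916, 1.15 and 0.69 FPKM in ISP-I treated A549. AKR1C2, an aldo-keto reductase with close paralogues that can share its reads, measured 27.7, 26.2 and 33.3 FPKM in ISP-I treated H460 and 221, 234 and 223 FPKM in ISP-I treated A549. HMOX1, haem oxygenase 1, named after its values were seen, measured 2668, 2414 and 3636 FPKM in ISP-I treated H460 and 442, 448 and 506 FPKM in ISP-I treated A549 (2.62 ± 0.20, adjusted p = 1.68e-05). HMOX1 in controls measured 49.97, 57.8 and 51.9 FPKM in control H460 and 40.6, 41.6 and 51.9 FPKM in control A549. It was an appeared gene.

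Appeared genes numbered 409 higher in H460 (2.93% of genes tested) and 681 higher in A549 (4.88%). A change in at least one line follows from how the class is defined; which line changed does not. In 374 of the 409 the change called was a rise in H460, in 306 of them with no call in A549. In 504 of the 681 the change called was a fall in H460, and a rise in A549 was called in 70. As deposited, H460 moved further than A549 in 395 of 409 and in 576 of 681 genes. In persistent genes it did so in 289 of 357 higher in H460 and 399 of 857 higher in A549. Neither this count nor that of called rises and falls was taken over all genes tested, whose median change was -0.11 in H460 and 0.018 in A549. Without that share the counts do not show that H460 moved more in this class than elsewhere. Median-of-ratios factors were 0.84 to 0.85 in treated H460 and 1.01 to 1.04 in control H460. They were 1.09 in treated A549 and 1.03 to 1.09 in control A549. Scaling touched the 2 directions unequally: with median-of-ratios factors 407 of the 409 appeared again, and 338 of the 681. Without library 3 of treated H460, 1354 genes appeared, 1039 of them among the 1090.

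INHBA led those higher in H460, with the treated values given above against 0.596, 0.596 and 0.697 FPKM in control H460 and 0.00849, 0 and 0 FPKM in control A549. EGR4, an early growth response zinc finger factor, measured 65.2, 59.0 and 106 FPKM in ISP-I treated H460 and 0.536, 0.484 and 0.617 FPKM in ISP-I treated A549 (5.61 ± 0.21, adjusted p = 5.76e-07). EGR4 in controls measured 0.0293, 0.277 and 0.113 FPKM in control H460 and 0, 0 and 0.114 FPKM in control A549. NID1, the basement membrane protein nidogen-1, measured 97.1, 121 and 83.5 FPKM in ISP-I treated H460 and 4.38, 4.05 and 4.02 FPKM in ISP-I treated A549. NID1 in controls measured 2.14, 1.97 and 2.09 FPKM in control H460 and 2.06, 2.63 and 2.17 FPKM in control A549. SNAI2, the transcription factor Slug that represses epithelial genes, measured 47.7, 50.6 and 51.0 FPKM in ISP-I treated H460 and 1.65, 1.05 and 1.59 FPKM in ISP-I treated A549. SNAI2 in controls measured 1.67, 1.61 and 1.96 FPKM in control H460 and 0.471, 0.435 and 0.681 FPKM in control A549. MT1G, a metallothionein with close paralogues, measured 21.8, 25.02 and 54.4 FPKM in ISP-I treated H460 and 1.07, 1.61 and 0.743 FPKM in ISP-I treated A549 and was at 0 in control A549. In each of these 5 genes the 3 treated H460 libraries lay above every other library of the series, by a log2 line difference of 3.92 to 7.14.

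Those higher in A549 were led by genes that fell in H460. LGR4, an R-spondin receptor of the Wnt pathway, measured 1.67, 1.59 and 1.23 FPKM in ISP-I treated H460 and 21.9, 20.9 and 21.9 FPKM in ISP-I treated A549 (-3.18 ± 0.10, adjusted p = 2.57e-07). LGR4 in controls measured 22.0, 16.8 and 19.3 FPKM in control H460 and 40.1, 43.1 and 29.5 FPKM in control A549. APOBEC3C, a cytidine deaminase, measured 1.04, 0.5 and 0.382 FPKM in ISP-I treated H460 and 11.9, 13.3 and 11.7 FPKM in ISP-I treated A549. APOBEC3C in controls measured 11.0, 13.7 and 13.7 FPKM in control H460 and 15.7, 16.2 and 19.4 FPKM in control A549. PCNA, the sliding clamp of DNA replication, measured 27.4, 25.7 and 26.8 FPKM in ISP-I treated H460 and 187, 192 and 198 FPKM in ISP-I treated A549 (-2.81 ± 0.089, adjusted p = 2.84e-07). PCNA in controls measured 234, 223 and 179.6 FPKM in control H460 and 348, 341 and 342 FPKM in control A549. LRRC20, a leucine-rich repeat protein, measured 1.13, 0.878 and 1.19 FPKM in ISP-I treated H460 and 16.1, 13.5 and 15.4 FPKM in ISP-I treated A549. RBBP9, a serine hydrolase, measured 2.04, 1.31 and 1.60 FPKM in ISP-I treated H460 and 18.4, 19.5 and 16.6 FPKM in ISP-I treated A549. In the 5 genes the line difference in controls was between -0.99 and -0.27 and under ISP-I between -3.18 and -2.81, and all 5 were also called with median-of-ratios scaling.

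**Figure D2:**
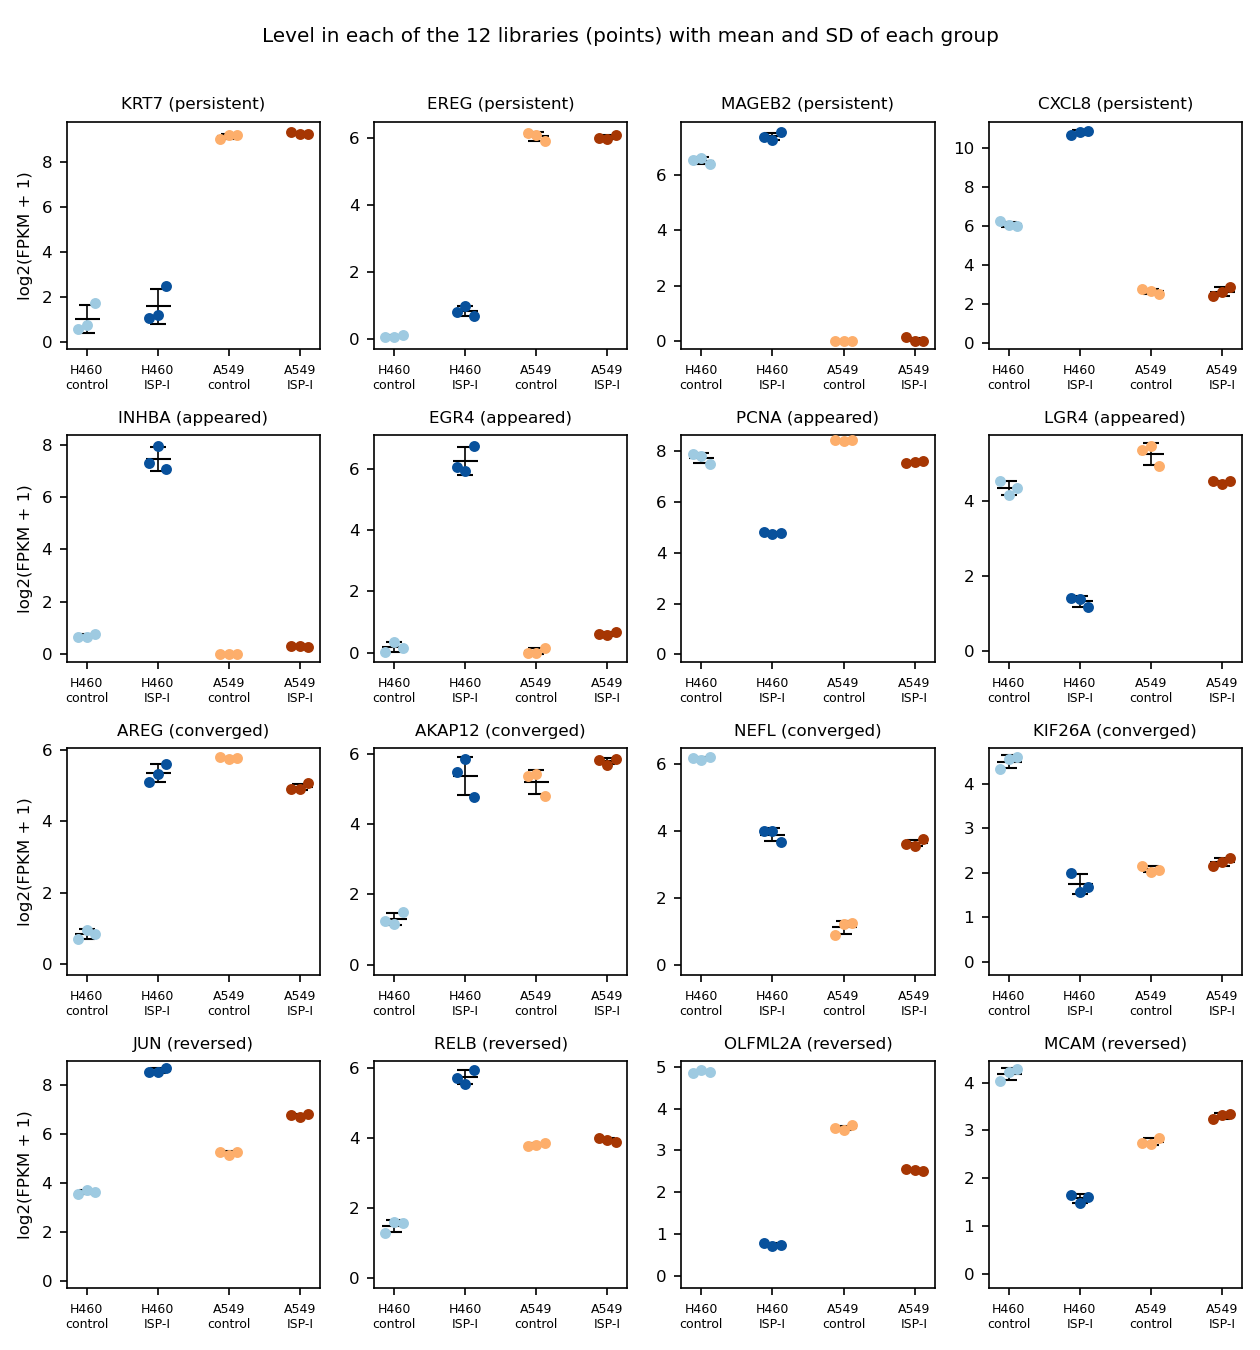
Level of 16 genes, 4 from each class, as log2(FPKM + 1) in each of the 12 libraries; points are libraries, the horizontal tick is the mean and the bar the SD of the 3 libraries of a group. The lines stay apart in the persistent genes, separate past 2-fold in the ISP-I columns in the appeared genes, meet in the ISP-I columns in the converged genes and cross in the reversed genes.

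Converged genes were fewer, 203 that had been higher in H460 (1.45% of genes tested) and 137 that had been higher in A549 (0.982%). In the first group a fall in H460 was called in 174 of 203 and a rise in A549 in 7. In the second, a rise in H460 was called in 75 of 137 and a fall in A549 in 35. Here too no share over all genes tested was taken for these rises and falls. With median-of-ratios scaling 144 of the 203 and 122 of the 137 converged again.

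AREG (amphiregulin), an EGF receptor ligand, had the largest interaction of those once higher in A549. It measured 0.635, 0.962 and 0.818 FPKM in control H460 and 54.2, 52.7 and 53.2 FPKM in control A549. With ISP-I it measured 33.3, 38.8 and 48.0 FPKM in ISP-I treated H460 and 28.6, 29.1 and 32.4 FPKM in ISP-I treated A549, an interaction of 5.31 ± 0.17, adjusted p = 1.41e-09. AKAP12, a kinase scaffold, measured 1.35, 1.23 and 1.82 FPKM in control H460 and 40.2, 42.3 and 26.8 FPKM in control A549. With ISP-I AKAP12 measured 43.6, 57.1 and 26.5 FPKM in ISP-I treated H460 and 55.8, 50.7 and 56.3 FPKM in ISP-I treated A549, with overlapping treated groups (-0.41 ± 0.25, adjusted p = 0.174). KLF5, a zinc finger factor of epithelium, measured 2.27, 2.18 and 2.92 FPKM in control H460 and 22.9, 22.9 and 19.9 FPKM in control A549. With ISP-I KLF5 measured 24.4, 30.6 and 24.2 FPKM in ISP-I treated H460 and 22.5, 22.0 and 21.7 FPKM in ISP-I treated A549. FOSL2, the AP-1 partner FRA2, measured 11.5, 10.6 and 12.7 FPKM in control H460 and 47.8, 50.2 and 49.0 FPKM in control A549. With ISP-I FOSL2 measured 65.4, 69.5 and 68.1 FPKM in ISP-I treated H460 and 46.6, 42.0 and 42.8 FPKM in ISP-I treated A549, where the difference of 0.62 ± 0.091, adjusted p = 0.000597 pointed to H460 but stayed under the 2-fold limit. In these 4 genes H460 reached, passed or approached the level of A549. CLDN2, a pore-forming claudin, closed from the other side: it measured 0.693, 0.676 and 0.59 FPKM in control H460 and 29.2, 30.8 and 34.1 FPKM in control A549. With ISP-I CLDN2 measured 0.0492, 0.176 and 0.198 FPKM in ISP-I treated H460 and 0.825, 0.636 and 0.879 FPKM in ISP-I treated A549, so both lines ended below 1 FPKM. There a log2(FPKM + 1) difference of -0.64 corresponds to a 5.53-fold ratio of means, and the call of convergence holds on that scale only.

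Among genes once higher in H460, NEFL, the neurofilament light chain, measured 71.5, 68.9 and 73.2 FPKM in control H460 and 0.874, 1.35 and 1.39 FPKM in control A549. With ISP-I NEFL measured 15.1, 15.0 and 11.8 FPKM in ISP-I treated H460 and 11.2, 10.9 and 12.5 FPKM in ISP-I treated A549: it fell in H460 (-2.28 ± 0.12, adjusted p = 3.8e-09) and rose in A549 (2.52 ± 0.12, adjusted p = 7.61e-09), and the treated groups overlapped. NOTCH3, a Notch receptor, measured 42.9, 46.3 and 48.5 FPKM in control H460 and 3.05, 3.20 and 3.12 FPKM in control A549. With ISP-I NOTCH3 measured 0.476, 0.485 and 0.53 FPKM in ISP-I treated H460 and 0.221, 0.176 and 0.185 FPKM in ISP-I treated A549, and fell in both lines. SCARA5, a ferritin scavenger receptor, measured 32.3, 32.3 and 30.5 FPKM in control H460 and 1.48, 1.41 and 1.29 FPKM in ISP-I treated H460 and 0.627, 0.582 and 0.509 FPKM in ISP-I treated A549. KIF26A, an unconventional kinesin, measured 19.1, 22.3 and 23.4 FPKM in control H460 and 2.99, 1.96 and 2.22 FPKM in ISP-I treated H460 and 3.47, 3.76 and 4.07 FPKM in ISP-I treated A549. RAB3B, a small GTPase of secretory vesicles, measured 30.8, 30.2 and 30.3 FPKM in control H460 and 5.87, 5.74 and 3.89 FPKM in ISP-I treated H460 and 3.17, 3.12 and 2.84 FPKM in ISP-I treated A549. NOTCH3 and SCARA5 ended near or below 1 FPKM, where a difference in fold can stand beside a small one on this scale: with a pseudocount of 0.1 CLDN2, NOTCH3 and SCARA5 were called under ISP-I, at -1.92, 1.02 and 1.15.

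Only 16 genes were reversed (0.115% of genes tested), 11 that ended higher in H460 and 5 that ended higher in A549, and 12 of the 16 were reversed again with median-of-ratios scaling. JUN, a core subunit of the AP-1 factor (chr1:58776845-58784048), measured 10.7, 12.1 and 11.3 FPKM in control H460 and 37.9, 34.7 and 37.1 FPKM in control A549. With ISP-I JUN measured 367, 375 and 419 FPKM in ISP-I treated H460 and 109.9, 103 and 113 FPKM in ISP-I treated A549. The line difference went from -1.61 ± 0.073, adjusted p = 5.79e-06 to 1.82 ± 0.11, adjusted p = 5.99e-06. Both lines rose, by 4.97 in H460 and 1.54 in A549. FOSL1, the AP-1 partner FRA1, measured 51.5, 53.6 and 60.2 FPKM in control H460 and 112, 108 and 116 FPKM in control A549. With ISP-I FOSL1 measured 687, 667 and 711 FPKM in ISP-I treated H460 and 313, 296 and 317 FPKM in ISP-I treated A549. RELB, a subunit of the non-canonical NF-kB factor, measured 1.41, 1.99 and 1.96 FPKM in control H460 and 12.5, 12.9 and 13.4 FPKM in control A549. With ISP-I RELB measured 51.1, 45.3 and 60.5 FPKM in ISP-I treated H460 and 14.9, 14.4 and 13.6 FPKM in ISP-I treated A549 (interaction 4.12 ± 0.16, adjusted p = 4.29e-09), and only H460 rose past the call. PPP1R15A (GADD34), which restores translation after stress by recruiting a phosphatase to eIF2, measured 8.32, 9.69 and 10.3 FPKM in control H460 and 27.1, 26.8 and 32.2 FPKM in control A549. With ISP-I PPP1R15A measured 788, 721 and 1044 FPKM in ISP-I treated H460 and 379.8, 359.7 and 398 FPKM in ISP-I treated A549. WNT9A, a Wnt ligand, measured 0.191, 0.214 and 0.151 FPKM in control H460 and 2.02, 2.24 and 2.71 FPKM in control A549. With ISP-I WNT9A measured 60.7, 48.9 and 56.8 FPKM in ISP-I treated H460 and 12.4, 12.6 and 12.8 FPKM in ISP-I treated A549. NRG1 (neuregulin-1), the ligand of the ERBB receptors, measured 3.11, 3.03 and 3.18 FPKM in control H460 and 13.8, 15.1 and 12.6 FPKM in control A549. With ISP-I NRG1 measured 26.7, 29.8 and 20.3 FPKM in ISP-I treated H460 and 6.62, 6.65 and 6.79 FPKM in ISP-I treated A549. ARL14, a small GTPase, was at 0 in control H460 and measured 18.7, 23.9 and 15.4 FPKM in ISP-I treated H460 and 4.31, 5.09 and 4.54 FPKM in ISP-I treated A549. H2BC5, NPR2, PLPP3 and TNC made up the rest, with treated differences of 1.505, 1.40, 1.16 and 1.03. TNC, the matrix protein tenascin-C, was the one of the 11 with a called fall in A549 (change -1.68 ± 0.087, adjusted p = 1.92e-08), where H460 changed by 0.97. NRG1 changed by -0.94 ± 0.12, adjusted p = 3.44e-05 in A549, under the 2-fold limit. The 5 genes that ended higher in A549 all fell in H460. OLFML2A, an extracellular olfactomedin protein, measured 27.8, 29.3 and 28.3 FPKM in control H460 and 10.6, 10.3 and 11.1 FPKM in control A549. With ISP-I OLFML2A measured 0.735, 0.647 and 0.667 FPKM in ISP-I treated H460 and 4.93, 4.75 and 4.67 FPKM in ISP-I treated A549. MCAM, the adhesion molecule CD146, measured 15.5, 17.6 and 18.4 FPKM in control H460 and 5.63, 5.58 and 6.20 FPKM in control A549. With ISP-I MCAM measured 2.14, 1.79 and 2.04 FPKM in ISP-I treated H460 and 8.45, 9.01 and 9.22 FPKM in ISP-I treated A549. COL6A1, a collagen VI chain, TRMT2A, a tRNA methyltransferase, and RASA3, a RAS GTPase-activating protein, had treated differences of -1.20, -1.25 and -1.18. With median-of-ratios scaling 2 of the 5 were reversed again, and these 3 lost the call under ISP-I, with differences of -0.91, -0.95 and -0.87.

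Immediate-early and AP-1 genes are switched on within minutes by growth factor, calcium and stress signals through pre-existing factors such as SRF. They were the list most clearly higher in H460 under ISP-I. Of 39 genes, 25 of 39 tested members were called higher in H460 and 3 higher in A549 under ISP-I, against 8 and 6 in controls. Their median difference was 1.82 under ISP-I and 0.058 in controls, and 12 appeared, all toward H460. The 25 stayed 25 when each treated library was left out, and became 26 with median-of-ratios scaling. EGR1, the founding early growth response factor, measured 796, 825 and 662 FPKM in ISP-I treated H460 and 42.4, 39.0 and 45.0 FPKM in ISP-I treated A549. EGR1 in controls measured 1.99, 2.50 and 2.23 FPKM in control H460 and 0.291, 0.694 and 0.604 FPKM in control A549. It rose in both lines, by 7.87 in H460 and 4.82 in A549, so its small control difference of 1.09 widened to 4.14 ± 0.13, adjusted p = 2.61e-07. DUSP2, a MAP kinase phosphatase, measured 56.6, 43.3 and 68.0 FPKM in ISP-I treated H460 and 0.972, 0.694 and 0.253 FPKM in ISP-I treated A549. The next 3 members were named after their values were seen. FOS measured 85.3, 85.1 and 120.5 FPKM in ISP-I treated H460 and 5.02, 5.68 and 6.63 FPKM in ISP-I treated A549. FOS in controls measured 1.20, 1.22 and 1.96 FPKM in control H460 and 1.30, 1.41 and 1.08 FPKM in control A549. FOSB measured 27.9, 32.7 and 36.0 FPKM in ISP-I treated H460 and 3.88, 3.34 and 3.87 FPKM in ISP-I treated A549. EGR2 measured 17.2, 17.6 and 17.5 FPKM in ISP-I treated H460 and 0.654, 0.743 and 0.869 FPKM in ISP-I treated A549. All 3 were below 2 FPKM in every control library of both lines.

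Within the RAS-ERK output list, which shares members with the list above, 12 of 35 tested members were called higher in H460 and 6 higher in A549 under ISP-I (13 in H460 and 4 in A549 with median-of-ratios scaling). IER3, an early response gene linked to ERK signalling, measured 790.4, 721 and 802 FPKM in ISP-I treated H460 and 73.2, 71.1 and 79.2 FPKM in ISP-I treated A549. IER3 in controls measured 34.6, 37.7 and 24.9 FPKM in control H460 and 38.7, 45.3 and 49.9 FPKM in control A549. SPRY2, a feedback inhibitor of receptor tyrosine kinases, measured 99.4, 97.4 and 103 FPKM in ISP-I treated H460 and 8.92, 9.01 and 9.76 FPKM in ISP-I treated A549. SPRY2 in controls measured 6.04, 6.64 and 7.06 FPKM in control H460 and 8.795, 9.19 and 8.47 FPKM in control A549, and the change in A549 was 0.059 ± 0.078, adjusted p = 0.56. The median of this list was 0.27 under ISP-I and -0.29 in controls.

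NF-kB targets and inflammatory cytokines were next. Of 45 tested members, 20 were called higher in H460 and 8 higher in A549 under ISP-I, with medians of 0.56 under ISP-I and 0 in controls and 9 appeared toward H460. CXCL8 rose in H460 by 4.69 ± 0.13, adjusted p = 2.37e-11 and changed by -0.01 in A549. CXCL2, a related chemokine whose paralogues CXCL1 and CXCL3 can share its reads, measured 489.7, 399.8 and 860.3 FPKM in ISP-I treated H460 and 9.92, 10.0 and 9.92 FPKM in ISP-I treated A549. CXCL2 in controls measured 31.3, 31.8 and 34.0 FPKM in control H460 and 9.91, 10.3 and 10.3 FPKM in control A549. IL1A, the alarm cytokine interleukin-1 alpha, measured 52.4, 56.0 and 40.4 FPKM in ISP-I treated H460 and 0, 0.221 and 0.207 FPKM in ISP-I treated A549. IL1A in controls measured 3.14, 2.68 and 2.86 FPKM in control H460 and 0.105, 0.0675 and 0.0336 FPKM in control A549. None of the 3 was called changed in A549, where they moved by -0.01, -0.025 and 0.092.

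Upstream sequences are shown for members of the lists whose calls pointed mostly to H460, picked because they hold a match. They are the 250 bases before the RefSeq start (GRCh38.p14), 5′ to 3′ on the strand of the gene, with matches in capitals. A match is a description and not evidence of binding. Capitals mark CArG boxes, the element read by SRF, in EGR1 (chr5:138465229-138465478, plus strand), the kB motif in CXCL2 (chr4:74099196-74099445, minus strand), and the AP-1 site TGANTCA in CXCL8 (chr4:73740319-73740568, plus strand) and IL1A (chr2:112784494-112784743, minus strand).
EGR1: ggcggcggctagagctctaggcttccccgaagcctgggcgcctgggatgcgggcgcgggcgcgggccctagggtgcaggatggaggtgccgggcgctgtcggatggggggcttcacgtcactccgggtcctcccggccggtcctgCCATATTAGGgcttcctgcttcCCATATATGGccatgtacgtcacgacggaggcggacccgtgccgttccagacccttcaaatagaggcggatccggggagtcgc
CXCL2: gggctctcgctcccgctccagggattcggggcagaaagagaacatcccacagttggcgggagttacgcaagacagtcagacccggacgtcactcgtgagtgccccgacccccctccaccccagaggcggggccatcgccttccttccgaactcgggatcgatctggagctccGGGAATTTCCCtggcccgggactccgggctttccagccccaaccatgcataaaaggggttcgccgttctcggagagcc
CXCL8: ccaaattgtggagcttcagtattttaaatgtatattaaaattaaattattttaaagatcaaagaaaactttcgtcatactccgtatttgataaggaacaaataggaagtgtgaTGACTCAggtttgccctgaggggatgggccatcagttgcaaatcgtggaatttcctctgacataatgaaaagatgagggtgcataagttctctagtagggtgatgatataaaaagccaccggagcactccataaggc
IL1A: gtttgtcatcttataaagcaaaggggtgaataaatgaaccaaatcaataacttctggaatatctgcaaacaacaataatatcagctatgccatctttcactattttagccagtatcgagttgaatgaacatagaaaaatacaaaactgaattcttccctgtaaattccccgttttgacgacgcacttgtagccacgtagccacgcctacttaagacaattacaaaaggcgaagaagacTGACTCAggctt

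Both strands were searched in 27305 promoters, of which 11115 belonged to genes tested. A kB motif was in 15 of 36 promoters of the NF-kB list (41.7%). It was in 11.6% of promoters of genes tested and in 9.57% of all promoters. The list was written as NF-kB targets, so its share gives no information on the line difference. Among appeared genes the motif was in 10.9% of promoters of those higher in H460 and 13.4% of those higher in A549. Among persistent genes these shares were 11.8% and 12.3%. In CXCL2 the motif matched on both strands at overlapping positions. A CArG box was in 2 of 30 promoters of the immediate-early list (EGR1, with 2 matches, and SRF) and in 1.14% of all. No promoter of that list held the AP-1 site. FOS, FOSB, EGR2, JUN and FOSL2 held no match to any motif searched. CXCL8 and IL1A, members of the NF-kB list printed with an AP-1 site, held no kB motif as searched. The AP-1 site was in 7.29% of 329 promoters of appeared genes higher in H460, 2.95% of 543 of those higher in A549 and 4.29% of all tested. For persistent genes the shares were 8.24% of 279 promoters higher in H460 and 4.63% of 626 higher in A549. In genes that converged from the side of H460 it was 6.83% of 161, and over all promoters 6.60%, so shares near that of the appeared genes higher in H460 were also found outside that class.

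**Figure D3:**
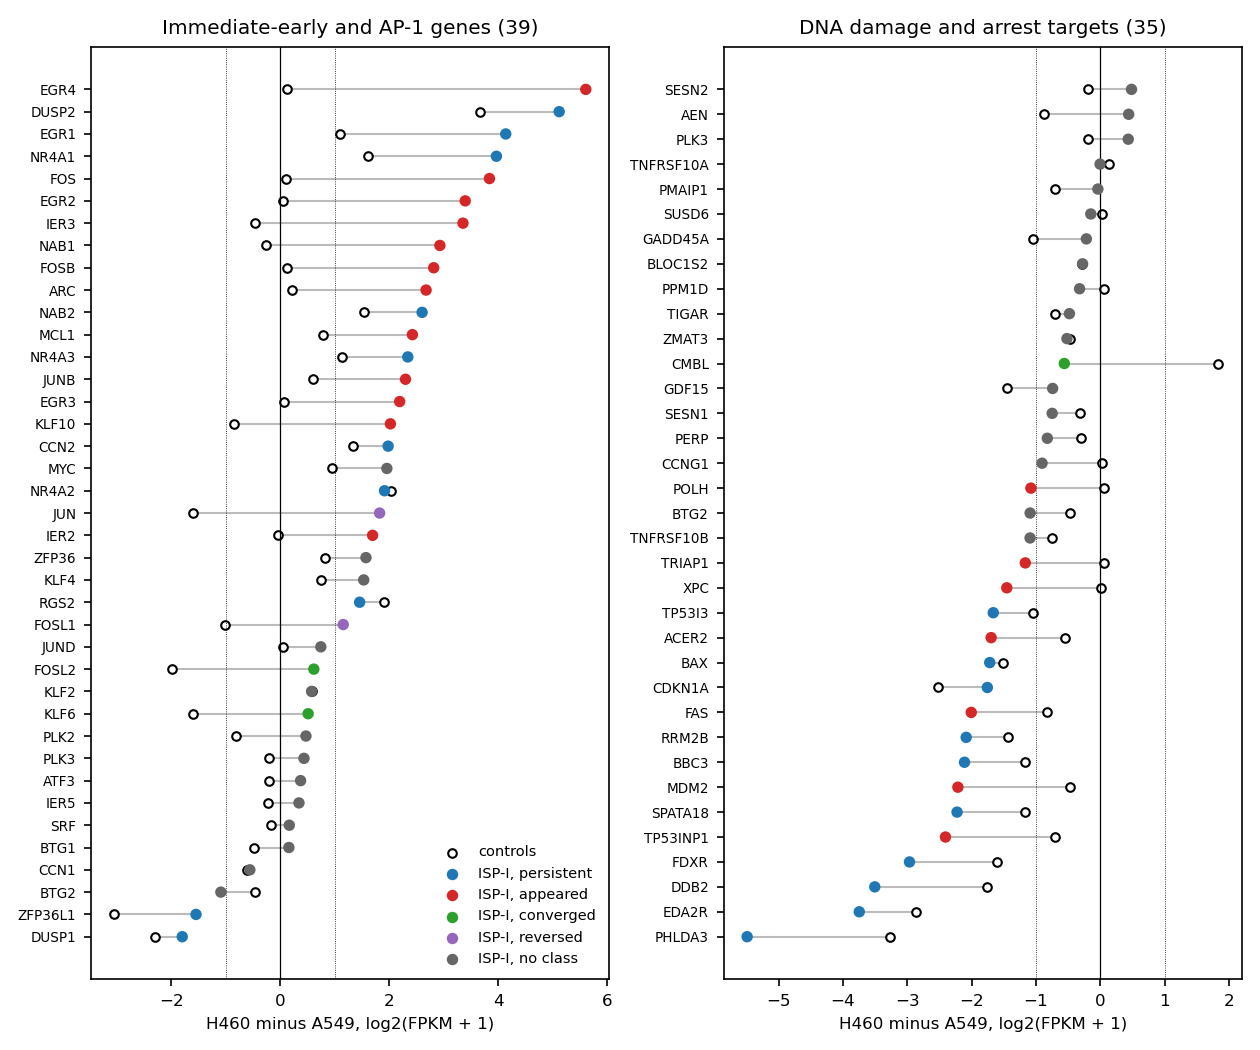
Line difference (H460 minus A549, log2(FPKM + 1)) of every tested member of the immediate-early and AP-1 list (left, 39 genes) and the DNA damage and arrest target list (right, 35 genes); open circles are controls, filled circles ISP-I, coloured by class, and dotted lines mark a 2-fold difference. Most filled circles on the left lie to the right of their open circle, and 19 of the 35 on the right lie beyond the limit toward A549.

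DNA damage and arrest targets leaned the opposite way. DNA damage and other stress induce these genes, which act in cell-cycle arrest, repair and death. 0 of 35 tested members were called higher in H460 and 19 higher in A549 under ISP-I, and 15 were called higher in A549 with median-of-ratios scaling. The median difference was -1.09 under ISP-I and -0.70 in controls, so part of the gap preceded the drug: 10 were persistent and 7 appeared. PHLDA3, an inhibitor of AKT, measured 1.001, 0.926 and 1.79 FPKM in ISP-I treated H460 and 98.1, 99.5 and 96.7 FPKM in ISP-I treated A549 (-5.49 ± 0.15, adjusted p = 1.53e-07). PHLDA3 in controls measured 2.06, 2.25 and 2.67 FPKM in control H460 and 29.2, 27.8 and 36.7 FPKM in control A549. EDA2R, a death receptor of the TNF receptor family, measured 0.124, 0.216 and 0.0932 FPKM in ISP-I treated H460 and 14.3, 14.6 and 14.1 FPKM in ISP-I treated A549. DDB2, a damage sensor of nucleotide excision repair, measured 2.69, 2.27 and 2.89 FPKM in ISP-I treated H460 and 38.9, 38.5 and 42.7 FPKM in ISP-I treated A549. PHLDA3 rose in A549 (1.63 ± 0.14, adjusted p = 1.67e-06), where the change in H460 was -0.59. MDM2, a ubiquitin ligase, named after its values were seen, measured 3.52, 4.32 and 3.52 FPKM in ISP-I treated H460 and 21.8, 20.4 and 21.2 FPKM in ISP-I treated A549. MDM2 in controls measured 4.32, 3.67 and 4.26 FPKM in control H460 and 6.65, 6.64 and 4.97 FPKM in control A549. It rose past the call in A549 only (change in H460 -0.089).

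Among the 17 genes on which the study built its account (PI3K/AKT signalling, cell cycle and death), which the study chose on these samples and which are therefore no independent evidence of a direction, 2 were called higher in H460 and 8 in A549 under ISP-I (2 in H460 and 5 in A549 with median-of-ratios scaling). CDKN1A, the cyclin-dependent kinase inhibitor p21, measured 59.7, 53.8 and 75.8 FPKM in ISP-I treated H460 and 212, 206 and 223 FPKM in ISP-I treated A549. CDKN1A in controls measured 7.10, 8.22 and 8.36 FPKM in control H460 and 45.7, 48.4 and 56.7 FPKM in control A549, and it rose in both lines. BBC3 (PUMA), a pro-apoptotic BH3 protein, measured 2.69, 2.07 and 4.10 FPKM in ISP-I treated H460 and 17.4, 15.3 and 14.5 FPKM in ISP-I treated A549 (-2.11 ± 0.18, adjusted p = 3.52e-05). BAX, a pore-forming effector of apoptosis, measured 21.6, 16.8 and 30.8 FPKM in ISP-I treated H460 and 74.3, 80.7 and 73.2 FPKM in ISP-I treated A549. FAS, a death receptor, measured 0.672, 1.01 and 0.375 FPKM in ISP-I treated H460 and 5.33, 6.19 and 5.56 FPKM in ISP-I treated A549. FADD and TNFRSF10B, of the same death receptor branch, differed by -1.08 and -1.09, calls that median-of-ratios scaling ended at -0.73 and -0.73. TNFRSF10A, TRAIL receptor 1, measured 22.0, 20.1 and 18.4 FPKM in ISP-I treated H460 and 20.3, 20.5 and 19.8 FPKM in ISP-I treated A549 and was not called (adjusted p = 0.98). GADD45A, a stress and arrest gene, had a called control difference of -1.05 and a treated difference of -0.22 ± 0.22, adjusted p = 0.402, with overlapping groups. Its interaction was not called, so a change of this gap with ISP-I was not shown. FOXO3 and FOXO1, transcription factors restrained by AKT, were the 2 genes higher in H460. Without library 2 of treated H460 FOXO3 was at 0.98 and lost the call. FOXO3 measured 21.8, 25.7 and 17.2 FPKM in ISP-I treated H460 and 9.59, 8.74 and 9.59 FPKM in ISP-I treated A549. FOXO3 in controls measured 1.79, 1.67 and 2.06 FPKM in control H460 and 3.42, 3.84 and 3.13 FPKM in control A549. FOXO1 measured 8.44, 9.35 and 6.75 FPKM in ISP-I treated H460 and 1.23, 0.995 and 1.05 FPKM in ISP-I treated A549. PIK3CB, a catalytic PI3K subunit, and EIF4EBP1, the translation repressor 4E-BP1, were called higher in A549, with differences of -1.14 and -1.39, and PIK3CB lost the call with median-of-ratios scaling (-0.92). AKT1, MTOR, EIF4E, CDK1 and CCNB1 were not called, with differences of -0.49, -0.089, 0.10, -0.56 and -0.82, although AKT1, CDK1 and CCNB1 had adjusted p of 0.00108, 0.00141 and 0.000311. EIF4E and MTOR overlapped between the groups. Median-of-ratios scaling turned the sign of 3 of these differences that were not called, to 0.23 for MTOR, 0.35 for TNFRSF10A and 0.15 for GADD45A.

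Anti-apoptotic BCL2 family members differed in opposite directions. BCL2L1 (BCL-XL), which blocks mitochondrial death, measured 4.01, 3.45 and 4.61 FPKM in ISP-I treated H460 and 64.0, 64.9 and 65.7 FPKM in ISP-I treated A549 (-3.72 ± 0.10, adjusted p = 1.85e-07). BCL2L1 in controls measured 7.75, 8.05 and 8.91 FPKM in control H460 and 39.6, 41.0 and 52.1 FPKM in control A549. MCL1, a short-lived anti-apoptotic relative, measured 445, 481 and 466 FPKM in ISP-I treated H460 and 86.8, 82.3 and 87.5 FPKM in ISP-I treated A549 (2.43 ± 0.10, adjusted p = 1.1e-06). MCL1 in controls measured 112, 113 and 104 FPKM in control H460 and 66.1, 64.9 and 58.5 FPKM in control A549. Of the list, 3 of 37 tested members were called higher in H460 and 11 higher in A549 under ISP-I.

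Part of the proliferation genes was lower in H460 than in A549 under ISP-I. Of the mitosis and G2/M list, 1 of 55 tested members were called higher in H460 and 16 higher in A549 under ISP-I, 10 of them appeared. Medians were -0.56 under ISP-I and -0.042 in controls. Both lines were below their controls, by a median of -1.11 in H460 and -0.86 in A549. TOP2A, topoisomerase II alpha, measured 8.43, 15.1 and 4.46 FPKM in ISP-I treated H460 and 36.8, 42.1 and 39.5 FPKM in ISP-I treated A549. ECT2, a cytokinesis exchange factor, measured 10.5, 14.9 and 6.495 FPKM in ISP-I treated H460 and 37.0, 41.3 and 41.2 FPKM in ISP-I treated A549, and CDC25A, the phosphatase that activates cyclin-dependent kinases, was the one member higher in H460, at 24.6, 19.0 and 21.3 FPKM in ISP-I treated H460 and 5.07, 4.94 and 4.91 FPKM in ISP-I treated A549. TOP2A and ECT2 were lowest in library 3 of treated H460. Of DNA replication genes, 1 of 47 tested members were called higher in H460 and 8 higher in A549 under ISP-I, a share close to that of all genes. RPA1, of the single-strand binding complex, measured 7.33, 5.87 and 5.595 FPKM in ISP-I treated H460 and 20.5, 20.1 and 19.2 FPKM in ISP-I treated A549. GINS3, of the replicative helicase, measured 23.2, 20.7 and 22.0 FPKM in ISP-I treated H460 and 4.52, 5.12 and 5.16 FPKM in ISP-I treated A549. With median-of-ratios scaling 10 mitosis and 4 replication genes were called higher in A549, and 1 and 3 in H460.

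Cholesterol synthesis and uptake genes, which SREBP-2 switches on when sterol in the endoplasmic reticulum falls, were not called higher in H460 for any member. 0 of 38 tested members were called higher in H460 and 11 higher in A549 under ISP-I, 6 of them appeared, with medians of -0.62 under ISP-I and 0.078 in controls and 8 called with median-of-ratios scaling. SQLE, squalene epoxidase, measured 5.51, 5.65 and 4.51 FPKM in ISP-I treated H460 and 37.6, 36.1 and 37.1 FPKM in ISP-I treated A549. SQLE in controls measured 13.9, 14.0 and 15.4 FPKM in control H460 and 28.6, 30.5 and 26.3 FPKM in control A549. The fatty acid desaturases FADS1 and FADS2, kept on this list as SREBP targets, measured 8.90, 7.10 and 7.39 FPKM in ISP-I treated H460 and 40.0, 38.7 and 38.1 FPKM in ISP-I treated A549 and 0.477, 0.529 and 0.485 FPKM in ISP-I treated H460 and 12.9, 12.7 and 11.6 FPKM in ISP-I treated A549. FADS2 was persistent, and FADS1 and SQLE appeared.

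Lysosome genes were mixed, with 14 of 50 higher in H460 and 11 in A549 and medians of -0.0017 under ISP-I and 0.11 in controls. With median-of-ratios scaling the median under ISP-I became 0.31. CTSA, the lysosomal carboxypeptidase cathepsin A, measured 24.6, 22.6 and 32.5 FPKM in ISP-I treated H460 and 4.91, 4.81 and 4.59 FPKM in ISP-I treated A549. ATP6V0D1, a subunit of the proton pump, measured 85.5, 78.3 and 85.7 FPKM in ISP-I treated H460 and 10.1, 10.0 and 10.8 FPKM in ISP-I treated A549 (2.90 ± 0.087, adjusted p = 2.4e-07). ATP6V0D1 in controls measured 23.3, 26.0 and 22.2 FPKM in control H460 and 9.47, 9.44 and 12.2 FPKM in control A549. MCOLN1, the lysosomal cation channel, measured 20.6, 18.8 and 24.4 FPKM in ISP-I treated H460 and 3.65, 3.98 and 3.36 FPKM in ISP-I treated A549 (2.25 ± 0.12, adjusted p = 2.64e-06). MCOLN1 in controls measured 5.43, 6.05 and 5.65 FPKM in control H460 and 3.75, 4.68 and 3.63 FPKM in control A549. Both rose in H460, where A549 changed by -0.002 and -0.10. Their upstream sequences are printed because each holds the E box TCACGTGA (capitals), the core of the element bound by the lysosomal regulator TFEB. It stood in 7 of 34 promoters of the list (20.6%) and in 1.63% of promoters of genes tested (0.890% of all promoters). The list was written as lysosome genes, so its share gives no information on the line difference. Among appeared genes the E box was in 2.43% of promoters of those higher in H460 and 0.921% of those higher in A549. Among persistent genes these shares were 1.43% and 2.24%. ATP6V0D1 is at chr16:67481158-67481407, minus strand, and MCOLN1 at chr19:7522374-7522623, plus strand.
ATP6V0D1: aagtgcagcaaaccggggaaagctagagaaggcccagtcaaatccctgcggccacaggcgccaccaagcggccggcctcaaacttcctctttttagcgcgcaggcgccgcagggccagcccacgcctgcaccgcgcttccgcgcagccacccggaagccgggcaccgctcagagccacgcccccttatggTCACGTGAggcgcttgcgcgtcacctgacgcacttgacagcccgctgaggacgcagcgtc
MCOLN1: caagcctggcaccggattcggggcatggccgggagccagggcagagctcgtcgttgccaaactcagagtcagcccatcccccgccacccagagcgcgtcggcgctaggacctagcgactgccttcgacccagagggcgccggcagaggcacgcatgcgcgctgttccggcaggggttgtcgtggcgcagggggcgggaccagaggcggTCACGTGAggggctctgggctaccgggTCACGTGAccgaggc

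Genes of the ribosome and of oxidative phosphorylation differed between the lines by an amount that single libraries of treated H460 moved. Of 79 cytosolic ribosomal protein genes, 21 were called higher in A549 and 1 in H460, with medians of -0.63 under ISP-I and 0.23 in controls. Without library 3 of treated H460 the 21 became 40 and the median -1.02. Without library 1 they became 11 (median -0.49) and without library 2 11 (median -0.44). With median-of-ratios scaling 7 of 79 were called higher in A549, a smaller share than the 10.7% of all genes, where the share as deposited stood above the 16.0% of all genes. RPS16 measured 162, 148 and 325 FPKM in ISP-I treated H460 and 789, 861 and 773 FPKM in ISP-I treated A549. RPS19 measured 119, 103 and 199.8 FPKM in ISP-I treated H460 and 539.6, 602 and 524 FPKM in ISP-I treated A549. RPS28 was the member higher in H460, at 75.2, 75.3 and 154 FPKM in ISP-I treated H460 and 17.9, 21.1 and 17.4 FPKM in ISP-I treated A549. In all 3 genes library 3 of treated H460 stood well above libraries 1 and 2. Of 49 nuclear oxidative phosphorylation genes, 11 were called higher in A549 and none of them in H460. The 11 became 17 without library 3 of treated H460, 8 without library 1 and 7 without library 2, with medians of -0.73, -0.39 and -0.33. With median-of-ratios scaling they became 4 of 49, again a smaller share than over all genes. UQCRFS1, the Rieske protein of complex III, measured 29.2, 22.1 and 52.0 FPKM in ISP-I treated H460 and 142, 143 and 137 FPKM in ISP-I treated A549. NDUFS8, of complex I, measured 6.89, 6.17 and 9.51 FPKM in ISP-I treated H460 and 26.4, 30.3 and 25.9 FPKM in ISP-I treated A549. COX6B1, of complex IV, measured 28.4, 27.2 and 89.8 FPKM in ISP-I treated H460 and 135, 145 and 127 FPKM in ISP-I treated A549. Of the 13 mitochondrially encoded mRNAs 1 was called, MT-ATP8, at 5.68, 9.86 and 9.44 FPKM in ISP-I treated H460 and 17.5, 26.5 and 21.6 FPKM in ISP-I treated A549 (-0.97 and no call with median-of-ratios scaling), and the list median of -0.28 became 0.09 with median-of-ratios scaling. Without library 3 of treated H460 2 were called higher in A549, and without library 2 a member was called higher in H460.

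Mesenchymal genes ran both ways, with 8 of 30 higher in H460 and 11 in A549. SNAI1, the factor Snail, measured 44.1, 37.4 and 47.2 FPKM in ISP-I treated H460 and 3.10, 2.77 and 3.07 FPKM in ISP-I treated A549 (3.46 ± 0.11, adjusted p = 2.69e-07) and joined SNAI2 among the highest of H460, while S100A4, a calcium-binding protein of motile cells, measured 40.9, 38.1 and 85.5 FPKM in ISP-I treated H460 and 409, 413 and 383 FPKM in ISP-I treated A549. No HOX gene was called higher in H460, and 10 of 31 were called higher in A549 (7 with median-of-ratios scaling). HOXB8 measured 0.0931, 0.125 and 0.112 FPKM in ISP-I treated H460 and 3.65, 3.71 and 4.09 FPKM in ISP-I treated A549. HOXB7 measured 5.37, 4.62 and 6.30 FPKM in ISP-I treated H460 and 21.9, 23.7 and 25.6 FPKM in ISP-I treated A549. HOXA5 measured 0.163, 0.244 and 0 FPKM in ISP-I treated H460 and 2.88, 2.04 and 2.31 FPKM in ISP-I treated A549 against 4.40, 3.90 and 4.25 FPKM in control H460, where it fell (-2.20 ± 0.11, adjusted p = 3.22e-09).

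Metal-binding and stress lists had members in both directions. Of metallothioneins and zinc handling genes, 3 of 13 tested members were called higher in H460 and 3 higher in A549 under ISP-I (4 in H460 and 2 in A549 with median-of-ratios scaling). MT1F, a paralogue of MT1G, measured 8.46, 8.14 and 19.8 FPKM in ISP-I treated H460 and 84.1, 114 and 95.8 FPKM in ISP-I treated A549, opposite to MT1G. SLC30A1, the zinc exporter, measured 168, 206 and 147 FPKM in ISP-I treated H460 and 41.4, 39.1 and 46.2 FPKM in ISP-I treated A549. Of ATF4 and integrated stress response targets, 5 of 37 tested members were called higher in H460 and 6 higher in A549 under ISP-I. With median-of-ratios scaling the balance of the last list turned, to 9 higher in H460 and 4 in A549, and its median went from 0.092 to 0.42. The serine synthesis genes PSAT1 and PSPH measured 8.04, 8.98 and 10.1 FPKM in ISP-I treated H460 and 39.0, 40.1 and 38.8 FPKM in ISP-I treated A549, and 1.07, 1.11 and 1.24 FPKM in ISP-I treated H460 and 11.9, 12.7 and 11.3 FPKM in ISP-I treated A549. TRIB3, a pseudokinase induced by ATF4, measured 16.7, 12.7 and 18.6 FPKM in ISP-I treated H460 and 68.0, 68.2 and 68.5 FPKM in ISP-I treated A549, and had fallen in H460 (-1.06 ± 0.12, adjusted p = 6.14e-06) and risen in A549 (1.22 ± 0.12, adjusted p = 5.14e-06). Of glycolysis and hypoxia genes, 5 of 36 tested members were called higher in H460 and 11 higher in A549 under ISP-I. SLC2A1, the glucose transporter GLUT1, measured 11.3, 8.58 and 9.93 FPKM in ISP-I treated H460 and 51.9, 49.4 and 52.5 FPKM in ISP-I treated A549 and appeared, while CA12, a carbonic anhydrase, and ENO2, neuron-type enolase, were persistent at differences of -3.76 and -2.38.

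Interferon-stimulated genes gave 6 calls toward H460 and 3 toward A549 among 38. IFITM3, which blocks viral entry, measured 57.4, 41.8 and 109.7 FPKM in ISP-I treated H460 and 4.71, 5.21 and 4.54 FPKM in ISP-I treated A549, whereas LGALS3BP, a secreted galectin-binding protein, measured 5.36, 4.0 and 4.96 FPKM in ISP-I treated H460 and 35.7, 32.9 and 33.4 FPKM in ISP-I treated A549. OAS3, an RNA sensor, measured 1.08, 0.971 and 0.95 FPKM in ISP-I treated H460 and 8.20, 8.09 and 8.02 FPKM in ISP-I treated A549. LGALS3BP and OAS3 changed further in H460 than in A549, with changes of -4.81 against -1.36 and -3.38 against -1.20 on the log2 scale. Of MHC class I presentation genes 3 of 20 were higher in H460 and none in A549 (6 in H460 and 0 in A549 with median-of-ratios scaling): HLA-B, an antigen-presenting heavy chain, at 20.1, 17.3 and 25.2 FPKM in ISP-I treated H460 and 2.29, 2.75 and 3.26 FPKM in ISP-I treated A549, and the chaperones CALR and PDIA3 by 1.14 and 1.11. CALR was an appeared gene that fell in A549 (-1.40 ± 0.10, adjusted p = 2.59e-07).

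Neuronal and Notch genes closed the survey. Of neuronal and neuroendocrine genes, 8 of 29 tested members were called higher in H460 and 6 higher in A549 under ISP-I. VGF, a neuropeptide precursor, measured 2404, 1938 and 3177 FPKM in ISP-I treated H460 and 73.3, 72.5 and 79.7 FPKM in ISP-I treated A549 (5.01 ± 0.19, adjusted p = 6.87e-07). VGF in controls measured 24.8, 30.7 and 30.6 FPKM in control H460 and 3.57, 3.02 and 3.11 FPKM in control A549. It rose in both lines. SCG2, secretogranin II, measured 9.31, 13.4 and 8.50 FPKM in ISP-I treated H460 and 0.468, 0.272 and 0.676 FPKM in ISP-I treated A549. Of the Notch list, 4 of 25 tested members were called higher in H460 and 5 higher in A549 under ISP-I (6 in H460 and 4 in A549 with median-of-ratios scaling), and its median of -0.25 became 0.057 with median-of-ratios scaling. NRARP, a Notch-induced feedback inhibitor, measured 37.5, 32.0 and 38.9 FPKM in ISP-I treated H460 and 2.74, 2.75 and 3.22 FPKM in ISP-I treated A549. DLL3, an inhibitory ligand, measured 0.492, 0.321 and 1.42 FPKM in ISP-I treated H460 and 5.30, 5.48 and 5.91 FPKM in ISP-I treated A549. DTX3, a Deltex ubiquitin ligase, measured 1.26, 1.20 and 1.42 FPKM in ISP-I treated H460 and 9.01, 8.64 and 8.26 FPKM in ISP-I treated A549. CCND1, cyclin D1, which leads the tumour suppressor and 9p21 list in A549, measured 35.1, 37.6 and 34.4 FPKM in ISP-I treated H460 and 154, 146 and 146 FPKM in ISP-I treated A549. Of this list 3 of 18 were higher in H460 and 2 in A549, with a median of -0.05 as deposited and 0.24 scaled. Of 14 markers of blood, endothelial and fibroblast cells only 3 passed the filter. Both called ones, COL3A1 and PDGFRB, were higher in H460, at 2.24, 2.44 and 2.05 FPKM in ISP-I treated H460 and 0.0991, 0.0377 and 0.0722 FPKM in ISP-I treated A549, and 2.44, 2.53 and 2.24 FPKM in ISP-I treated H460 and 0.272, 0.25 and 0.313 FPKM in ISP-I treated A549. The part of other cells in these values was not tested. A lower value in bulk RNA cannot be told apart between fewer expressing cells and less RNA per cell.

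**Figure D4:**
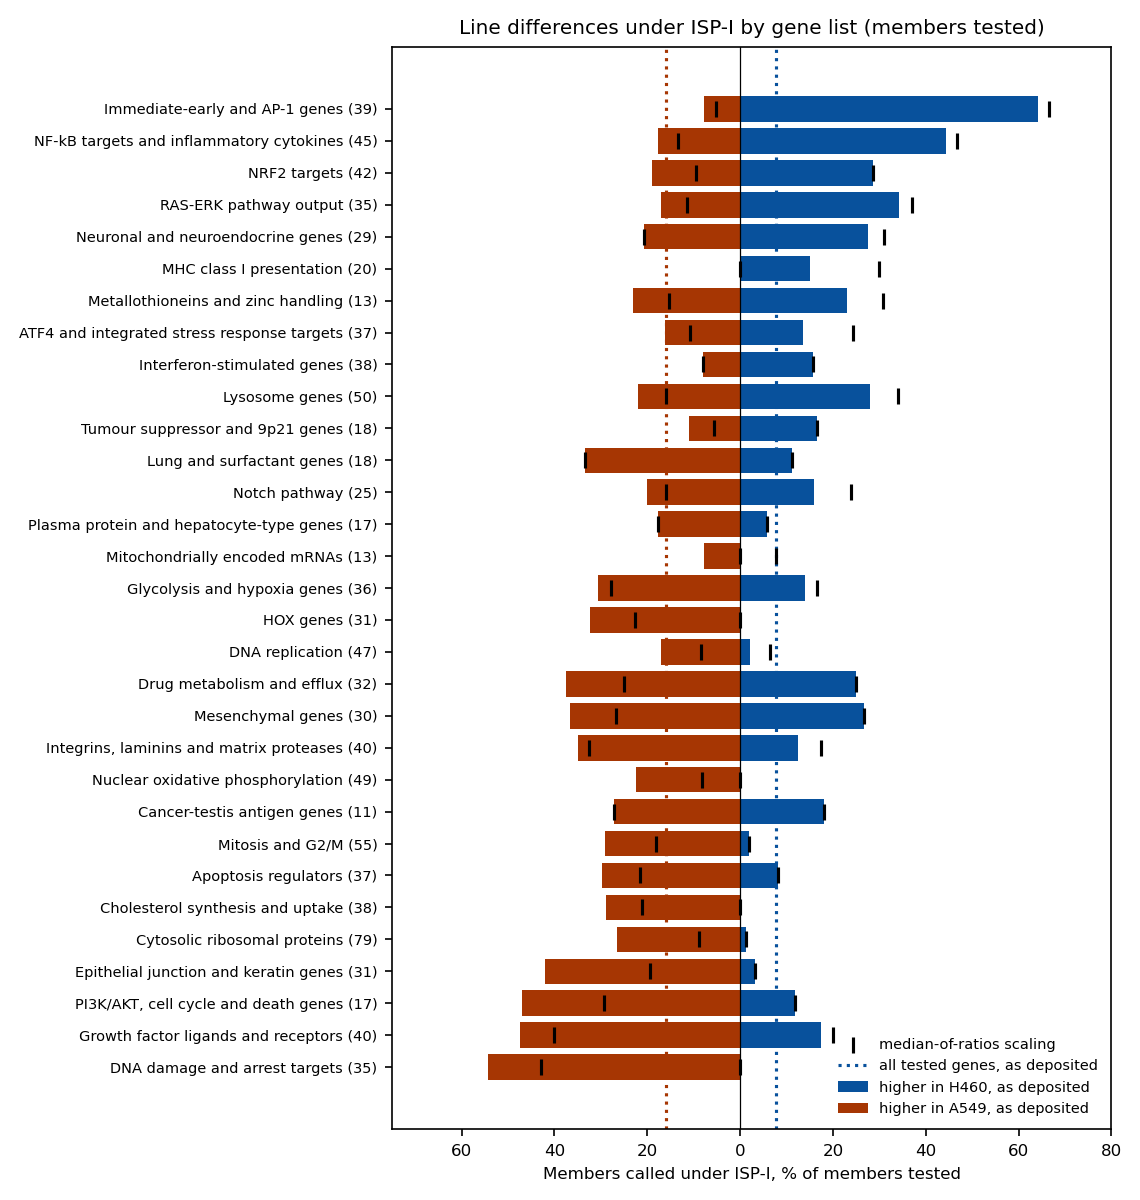
Share of the tested members of each gene list that were called under ISP-I, higher in H460 (blue, right) or in A549 (brown, left), as deposited; black ticks give the same shares with median-of-ratios scaling and dotted lines the shares of all tested genes (7.66% and 16.0%). Lists with at least 10 tested members are ordered by median difference, from immediate-early genes at the top to DNA damage and arrest targets at the bottom.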

How the data were processed

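RNA of H460 and A549 cells, with or without ISP-I, was sequenced in 12 libraries. The authors deposited FPKM values per gene. The submitters' processing notes name FastQC, HISAT2, HTSeq 0.9.1 and hg38, without their settings; strand of counting is not given in the sources used here. Of the table, 4 lines without an intact Ensembl gene ID were left out. Columns name line, treatment and a number from 1 to 6 within a line that does not match the replicate numbers of the titles, so libraries were numbered by column order within a group. FPKM times gene length came to whole reads, within 0.05 reads, for 100% of values, which gave the depth. Among the tests, only the voom alternative used these reads. They also gave the chi-square between replicates, the floors and counting intervals, and the library totals of the simulation.

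Values were tested as log2(FPKM + 1) by limma-trend (limma 3.58.1, R 4.3.3; tables by Python 3.11.15): line differences on the 6 libraries of a treatment, the interaction on all 12. Fold changes on this scale understate those of low genes. On simulated data for the treated comparison (13953 genes) the fit recovered 50 of 65, 66 of 71 and 61 of 64 genes changed by 1.5, 2 and 3 on the log2 scale, with 0 false calls. The simulation gave every group the same fixed dispersion and changed only genes above a minimum level. It held no other shift between the lines and no deviating library, so it gives no error rate for the real data. Floors and intervals cover counting error only. Gene lists (32) and genes were chosen with earlier results of these data known. Named were, each way, the 8 called genes of largest treated difference (average of 5 FPKM or more, groups apart), the 5 of largest difference in each class (for converged genes, of largest interaction), the 3 such called members of each list, and 17 genes of the study. Some genes are not reported here. The other reversed genes and those marked so were named after their values were seen. Alternatives were other pseudocounts, filters, scalings, thresholds, tests, a replicate block (added after seeing the data) and leaving out each library.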

Additional observations from a re-analysis of the deposited data

Results flagged for a closer look

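Of the 148 genes given with values in the report, 91 had a line difference under ISP-I that differed from that in controls by the interaction test (limma, over 2-fold on the log2(FPKM + 1) scale and an adjusted p under 0.05). The values that follow are these interactions, the line difference under ISP-I minus that in controls on the log2 scale, each from 12 libraries. They give how far H460 moved relative to A549 between non-treated and ISP-I treated cells, and no explanation was tested. In groups of 3 libraries no gap test for an outlying value was run. Among appeared genes the interaction favoured H460 most in INHBA 6.44 and then, in order, in EGR4 5.48, NID1 4.38, IER3 3.82, FOS 3.73, SPRY2 3.68, SNAI2 3.55, EGR2 3.34, MT1G 3.07, NRARP 2.79, FOSB 2.70, SLC30A1 2.39, HMOX1 2.37, MCOLN1 1.82, FOXO3 1.77, MCL1 1.64, CTSA 1.54, CALR 1.16 and GINS3 1.15. Appeared genes with an interaction toward A549 were led by LGALS3BP -3.44, and the others were LRRC20 -2.68, APOBEC3C -2.65, HOXA5 -2.48, TRIB3 -2.28, LGR4 -2.27, OAS3 -2.18, PCNA -2.10, SLC2A1 -2.06, PSAT1 -1.96, RBBP9 -1.87, LPCAT1 -1.84, MDM2 -1.74, SQLE -1.68, RPA1 -1.61, DLL3 -1.61, HOXB7 -1.43, FADS1 -1.37, FAS -1.17 and EIF4EBP1 -1.12. Persistent genes whose gap moved toward H460 were led by CXCL8 4.70, followed by CXCL2 4.08, IL1A 3.60, EGR1 3.05, TM4SF4 2.24, VGF 2.21, CYP24A1 2.19, ATP6V0D1 1.76, IGFN1 1.67, SERPINB2 1.496, DUSP2 1.45 and SCG2 1.30. Persistent genes whose gap moved toward A549 were led by TBXT -2.74, followed by PHLDA3 -2.22, TGM2 -1.89, IGFBP4 -1.78, DDB2 -1.74, AKR1C2 -1.74, S100A4 -1.74, COL3A1 -1.53, INA -1.49, BCL2L1 -1.44, FA2H -1.15, MT1F -1.15 and UQCRFS1 -1.02. Converged genes that had been higher in A549 were led by AREG 5.31, with CLDN2 3.65, AKAP12 3.49, KLF5 2.97 and FOSL2 2.61 after it. Converged genes that had been higher in H460 were led by NEFL -4.79, with NOTCH3 -3.18, SCARA5 -3.07, KIF26A -2.91 and RAB3B -2.87 after it. Reversed genes that ended higher in H460 were led by RELB 4.12, with NRG1 3.62, WNT9A 3.53, JUN 3.43, ARL14 2.91, NPR2 2.83, H2BC5 2.81, PPP1R15A 2.66, TNC 2.65, PLPP3 2.38 and FOSL1 2.17 after it. Reversed genes that ended higher in A549 were led by MCAM -3.14, with OLFML2A -3.12, COL6A1 -2.63, TRMT2A -2.32 and RASA3 -2.28 after it. Outside the 4 classes, the interaction was AKT1 -1.14.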

How the results depend on the processing

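The number in a column name, which runs from 1 to 6 within a line, does not match the replicate numbers of the titles, and nothing says that a number marks a shared culture or day. Libraries of the 2 lines with the same column number did not all deviate together from their group means: over the 6 such pairs the correlation across genes was -0.51 to 0.40. A fit with the column number as a replicate block, chosen after seeing the data, gave 1069 calls higher in H460, 2233 higher in A549, 1937 in controls, 2226 interactions and 1211 persistent, 339 converged, 1087 appeared and 16 reversed genes, and changed the call of none of the 148 genes. With 10 settings and 12 fits that left out a library, the counts of calls stayed within 1.5 times their main value with a filter of 1 FPKM on the mean, without a filter, with a single fit of 12 libraries, an adjusted p under 0.01 and quantile normalization. Within that limit the balance of directions still moved. Quantile normalization gave 1503 calls higher in H460 and 1530 higher in A549, against 1069 and 2232 as deposited. Median-of-ratios scaling gave 1706 calls higher in H460 where 1069 were called as deposited. Tests against a 2-fold change (limma treat), a pseudocount of 0.1 and limma voom on recovered reads moved the counts. In that order they gave 570, 1765 and 2799 genes higher in H460 under ISP-I, and 1228, 3850 and 3031 higher in A549. In the same order they gave 1092, 3560 and 4015 calls in controls, 680, 4239 and 4023 interactions, 680, 2347 and 2643 persistent, 317, 2068 and 1843 appeared, 134, 639 and 664 converged and 6, 69 and 139 reversed genes. By construction treat asks for evidence of a change beyond 2-fold, and voom also differs in scaling and filter. The cause of the other shifts was not tested. Leaving out one library in turn gave 989 to 1167 calls higher in H460, 2175 to 2339 higher in A549, 1916 to 2066 in controls, 2035 to 2647 interactions, 1185 to 1225 persistent, 324 to 386 converged, 949 to 1354 appeared and 15 to 17 reversed genes.

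Over the 148 genes and all alternatives, 3199 values kept direction and side of the threshold, 36 lost the call, 7 gained it and 12 changed sign. The sign changes were in 3 genes that were not called. MTOR became 0.26 with voom, 0.23 with median-of-ratios scaling, 0.19 with quantile normalization and between -0.18 and 0.054 with single libraries left out, the highest without library 3 of treated H460. TNFRSF10A became 0.36, 0.35 and 0.041 under the same 3 settings, lay between -0.065 and 0.058 (without that library) with single libraries left out, and was 0.0016 and 0.0069 without libraries 1 and 2 of treated A549. GADD45A became 0.15 with voom and 0.15 with median-of-ratios scaling, and went from -0.48 without library 3 of treated H460 (adjusted p = 0.000619, limma) to -0.045 without library 2. Single libraries ended calls near the limit: without library 2 of treated H460 FADD was at -0.87, FOXO3 at 0.98 and TNC at 0.95, and without library 3 PPP1R15A was at 0.99. The cause of these changes was not tested. With 3 libraries a group and reads per library as given, genes near the filter of 0.1 FPKM rest on few reads, and their differences are limited by counting error.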

Other observations

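The line difference also varied by chromosome, which no comparison above used. Of 473 genes tested on chromosome 8, 155 (32.8%) were called higher in A549 under ISP-I and 24 (5.07%) higher in H460. The median difference of chromosome 8, relative to that of all genes, was -0.41 on the log2 scale under ISP-I and -0.38 in controls. Chromosome 15 came next, with 137 of 453 higher in A549, 13 higher in H460 and relative medians of -0.32 and -0.37. On the other side stood chromosome X at 0.20 and 0.17, and chromosome 1 at 0.15 and 0.14. Chromosome 22 changed sign, from 0.082 in controls to -0.11 under ISP-I. Genes on a chromosome are not independent replicates, so these values are a description with no test.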
